A study of Mus musculus with 2 samples.

Results

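The R-spondins, the Lgr receptors and the membrane ligases they act on were followed in RNA-seq of mouse dermal cells. The group has 9 genes, which were found by their symbols: the receptor genes Lgr4, Lgr5 and Lgr6, the ligand genes Rspo1, Rspo2, Rspo3 and Rspo4, and the ligase genes Znrf3 and Rnf43. All 9 had a read in both libraries, among 17431 genes with a read in either. The group was chosen with the ratios between these libraries known, so its levels and ratios are given as descriptions and none is tested.

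There were 2 libraries of poly(A) RNA, 1 per cell type, from cultured dermis cells of BALB/c mice. The fibroblasts came from mice at postnatal day 3 and grew in DMEM with 10% fetal bovine serum. The skin-derived precursors (SKPs), multipotent cells of the dermis that are expanded in growth factors, came from mice at postnatal day 4 and grew in DMEM/F12 with 40 ng/ml FGF2, 20 ng/ml EGF and B27 supplement at 2%. Cell type, medium and age differ together and cannot be told apart, and no difference below has a replicate check.

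Reads mapped to genes numbered 19084469 for fibroblasts and 19563021 for SKPs. All 9 fibroblast and dermal mesenchyme markers were at RPKM 1 or more in both libraries (RPKM divides the reads counted in a gene by the gene length and by the library total, so it allows genes of unequal length to be set side by side). Of 7 SKP markers, 7 reached RPKM 1 in the SKP library and 6 in the fibroblast library, where Sox2 stood at 0.818 RPKM. These markers therefore did not separate the libraries by presence or absence. Some differed in level by 2-fold or more. Of the 9 dermal markers, Lum (895 RPKM in SKPs against 17.1), Dcn and Col3a1 were higher in the SKP library. Thy1 (994 RPKM against 313) and Col1a1 were higher in the fibroblast library. Of the 7 SKP markers, Nes (28.2 RPKM against 6.30) and Sox2 (1.83 against 0.818) were higher in the SKP library and 0 in the fibroblast library. The other 5 (Fn1, Snai2, Twist1, Ngfr and Vim) differed by less than 2-fold, each with the higher level in the fibroblast library. Snai2 stood at 29.0 RPKM in SKPs against 53.9, and Ngfr at 4.63 against 7.33. Summed, the 7 SKP markers reached 2450 RPKM in the SKP library and 3168 in the fibroblast library. Over all expressed genes, as defined below, 12.1% were higher in SKPs and 6.41% in fibroblasts.

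R-spondins are secreted proteins that amplify Wnt signalling. An R-spondin bridges an Lgr receptor and the transmembrane ligase Znrf3 or Rnf43, and the complex is cleared from the cell surface. The ligases otherwise mark Frizzled receptors for degradation, so their loss leaves more Wnt receptor on the cell. In skin, Lgr5 is known as a marker of hair follicle stem cells and Lgr6 as a marker of stem cells of the upper follicle and epidermis, while cells of the dermal papilla are a known source of R-spondins.

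The main receptor gene and the main ligand gene differed between the libraries. The fibroblast library held 16.8-fold more receptor RNA, most of it Lgr5, and its main ligand gene was Rspo3. The SKP library held 6.16-fold more ligand RNA, mostly Rspo4 and Rspo1, and its main receptor gene was Lgr4. The ligase Znrf3 was at nearly the same low level in both, and Rnf43 was at 1 read in each.

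**Figure D1:**
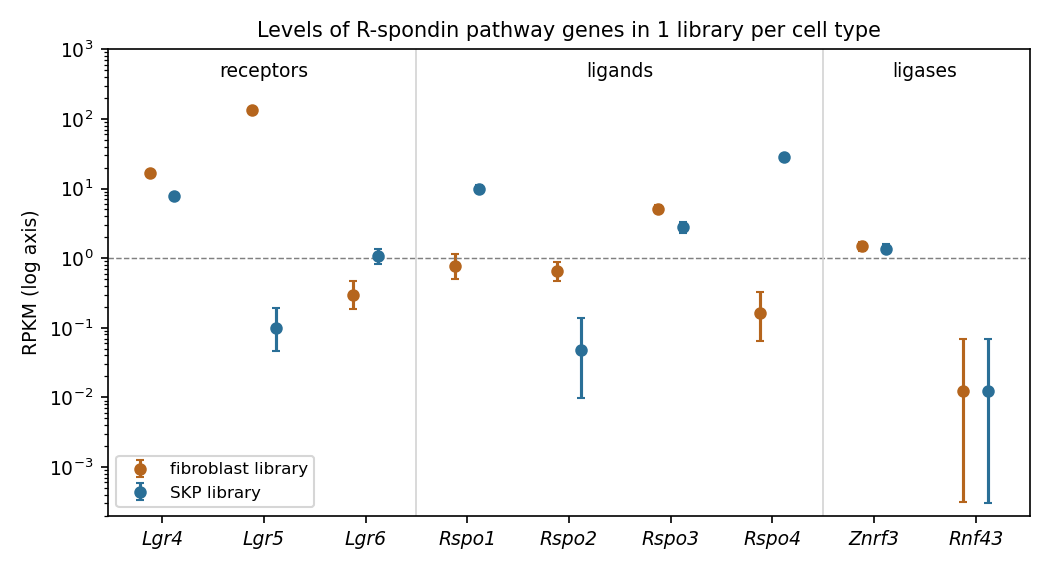
RPKM (log axis) of each gene in the fibroblast library (brown) and the SKP library (blue), with 95% exact Poisson counting intervals as bars; the dashed line is RPKM 1. Lgr5 stands highest in the fibroblast library at 133 RPKM, and Rspo4 stands highest in the SKP library at 28.1 RPKM.

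Lgr5 encodes a high-affinity R-spondin receptor. It had 11535 reads in the fibroblast library, or 133 RPKM with a 95% exact counting interval of 131 to 135, against 9 reads and 0.101 RPKM (0.0461 to 0.191) in the SKP library. Intervals here and below cover counting error only. By RPKM, Lgr5 ranked 454 of 16282 genes with a read in the fibroblast library and 14776 of 16727 in the SKP library. Of 12053 expressed genes (RPKM 1 or more with 20 reads or more in either library), 1 had a ratio further towards the fibroblast side.

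Lgr4, the most broadly expressed of the 3 receptors in mouse tissues, stood at 16.7 RPKM (15.9 to 17.5) in fibroblasts and 7.75 RPKM (7.20 to 8.33) in SKPs. The fibroblast level was 2.15-fold the SKP level (1.97 to 2.35), close to the 2-fold limit used here. Lgr6 went the other way. It had 73 SKP reads against 20 fibroblast reads, which gave 1.06 RPKM against 0.300, a 3.55-fold higher level (2.14 to 6.14) in the SKP library. Lgr6 only just reached RPKM 1 in the SKP library. It was no longer called on the log2(RPKM + 1) scale (0.67), with RPKM of at least 5 or at 4-fold.

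As levels per length, the receptors can be set beside each other within a library. In the fibroblast library Lgr5 RNA was 7.97 times as abundant as Lgr4 RNA, and Lgr4 was 55.7 times as abundant as Lgr6. In the SKP library Lgr4 was 76.9 times as abundant as Lgr5 and 7.29 times as abundant as Lgr6. The 3 receptors together summed to 150 RPKM in fibroblasts and 8.91 RPKM in SKPs, a 16.8-fold higher level in the fibroblast library. Lgr5 made up 88.7% of that sum in fibroblasts and 1.13% in SKPs. Without Lgr5 the receptor sums were 17.0 and 8.81 RPKM.

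**Figure D2:**
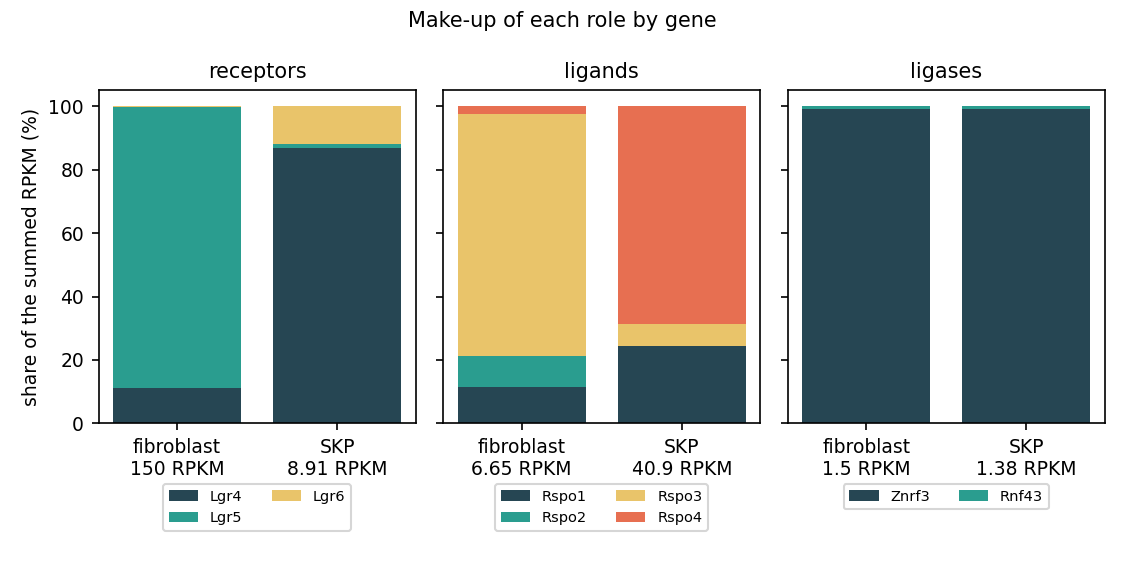
Share (%) of the summed RPKM of the receptors, ligands and ligases that each gene takes in the 2 libraries, with the sum under each bar. Lgr5 fills 88.7% of the fibroblast receptor bar and Lgr4 86.9% of the SKP one, Rspo3 fills 76.2% of the fibroblast ligand bar and Rspo4 68.7% of the SKP one, and Znrf3 fills nearly all of both ligase bars.

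Among the ligands, Rspo4 and Rspo1 were the members with far more RNA in the SKP library. Rspo4, whose human counterpart is needed for nail formation, had 1264 SKP reads against 7 fibroblast reads. Its level was 28.1 RPKM (26.6 to 29.7) in the SKP library and 0.160 RPKM (0.0645 to 0.330) in the fibroblast library, a 175-fold difference (84.9 to 437). Only 22 of 12053 expressed genes had a ratio further towards the SKP side. Rspo1, a ligand known for its role in ovary development, had 347 SKP reads against 26, or 9.98 RPKM (8.96 to 11.1) against 0.770 (0.503 to 1.13). The SKP level was 13.0-fold the fibroblast level (8.70 to 20.1).

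The promoters of Rspo4 and Rspo1 are shown because these ligands were both higher in the SKP library, with that of Lgr4, a receptor with RNA in both libraries, beside them. Each is the stretch of 250 bases before the annotated start, 5′ to 3′, from RefSeq on GRCm38.p6, with CG dinucleotides in capitals. The lines are Rspo4 at chr2:151842677-151842926, Rspo1 at chr4:124986180-124986429 and Lgr4 at chr2:109917397-109917646, all on the plus strand.
Rspo4: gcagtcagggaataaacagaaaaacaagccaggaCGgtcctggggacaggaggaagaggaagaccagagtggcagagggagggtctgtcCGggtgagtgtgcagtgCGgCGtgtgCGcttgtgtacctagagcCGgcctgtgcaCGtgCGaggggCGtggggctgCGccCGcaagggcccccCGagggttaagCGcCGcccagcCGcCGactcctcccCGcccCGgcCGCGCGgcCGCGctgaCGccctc
Rspo1: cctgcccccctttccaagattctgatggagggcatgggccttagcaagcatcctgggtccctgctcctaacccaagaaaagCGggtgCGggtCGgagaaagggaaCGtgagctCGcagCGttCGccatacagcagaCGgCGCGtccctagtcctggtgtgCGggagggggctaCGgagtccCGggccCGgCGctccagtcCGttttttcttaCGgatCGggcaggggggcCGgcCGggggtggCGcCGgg
Lgr4: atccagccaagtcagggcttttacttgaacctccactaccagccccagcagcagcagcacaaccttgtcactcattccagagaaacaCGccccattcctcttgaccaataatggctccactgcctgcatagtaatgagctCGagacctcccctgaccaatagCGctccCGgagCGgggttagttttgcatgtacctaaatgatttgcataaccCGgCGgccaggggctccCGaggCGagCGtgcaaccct
The Rspo4 stretch holds 24 CG dinucleotides, more than 88.0% of the 32851 promoters in the table, and the Rspo1 stretch holds 22, more than 85.2%. The Lgr4 stretch holds 10 and the median promoter 6. Of the promoters not printed, that of Lgr6 holds 16, more than 74.6% of promoters, and those of Rnf43 hold 8 and 2. Base composition was chosen for description after the values were seen. The TCF/LEF letters CTTTGAA and CTTTGAT, searched on both strands of the full 300 bases around the start, were in none of the promoters of the 5 members with an entry (Lgr4, Lgr6, Rspo1, Rspo4 and Rnf43), and 8.65% of all promoters held one or the other.

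Rspo3 and Rspo2 had more RNA in the fibroblast library. Rspo3, a ligand of vascular and stromal development, was the main fibroblast ligand, with 225 reads and 5.07 RPKM (4.43 to 5.78) against 127 reads and 2.78 RPKM (2.32 to 3.31) in the SKP library. The difference was 1.82-fold (1.46 to 2.29), under the 2-fold limit. An annotated antisense gene, Gm48159, shares 404 of 3090 exon bases with Rspo3 in GENCODE M21, and the strand of the reads is not given, so reads of the pair could not be separated. Rspo2, a ligand of limb and hair development, had 40 fibroblast reads (0.651 RPKM) and 3 SKP reads (0.0474 RPKM). The fibroblast level was 13.7-fold the SKP level (4.37 to 69.4), and the gene stayed below the expression filter in both.

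The 4 ligands summed to 6.65 RPKM in fibroblasts and 40.9 RPKM in SKPs, a 6.16-fold higher level in the SKP library. Rspo3 made up 76.2% of the fibroblast sum and 6.79% of the SKP sum, whereas Rspo4 made up 2.41% and 68.7%, and Rspo1 11.6% and 24.4%. The receptor sum was 22.6 times the ligand sum in the fibroblast library. In the SKP library the ligand sum was 4.59 times the receptor sum.

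The ligase Znrf3 had 173 fibroblast reads and 164 SKP reads, which gave 1.49 RPKM (1.28 to 1.73) and 1.37 RPKM (1.17 to 1.60). The ratio of SKP over fibroblast RPKM was 0.921, with a counting interval of 0.739 to 1.15 that includes equality. Its close relative Rnf43 had 1 read in each library. A count of 1 in each library supports no fold.

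The order of the levels differed between the libraries. In the fibroblast library it ran Lgr5, Lgr4, Rspo3, Znrf3, Rspo1, Rspo2, Lgr6, Rspo4 and Rnf43, and the counting intervals of Rspo1 and Rspo2, of Lgr6 and Rspo4, and of Rspo4 and Rnf43 overlapped. In the SKP library it ran Rspo4, Rspo1, Lgr4, Rspo3, Znrf3, Lgr6, Lgr5, Rspo2 and Rnf43. There the intervals of Znrf3 and Lgr6, of Lgr5 and Rspo2, and of Rspo2 and Rnf43 overlapped.

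Of the 9 members, 7 were expressed by the filter given above, and Rspo2 and Rnf43 were not. A gene was called when its levels differed by 2-fold or more and the interval left out equality. By this rule 3 of the 7 were higher in the SKP library (Rspo4, Rspo1 and Lgr6), beside 12.1% of all 12053 expressed genes. Another 2, Lgr5 and Lgr4, were higher in the fibroblast library, beside 6.41% of all expressed genes, and Rspo3 and Znrf3 were not called. In either direction 18.5% of expressed genes were called. Lgr6, Rspo1 and Rspo4 passed the filter through the SKP library alone and Lgr5 through the fibroblast library alone, so the filter itself favoured those directions. The members were chosen on this contrast, so nothing is read from their count.

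**Figure D3:**
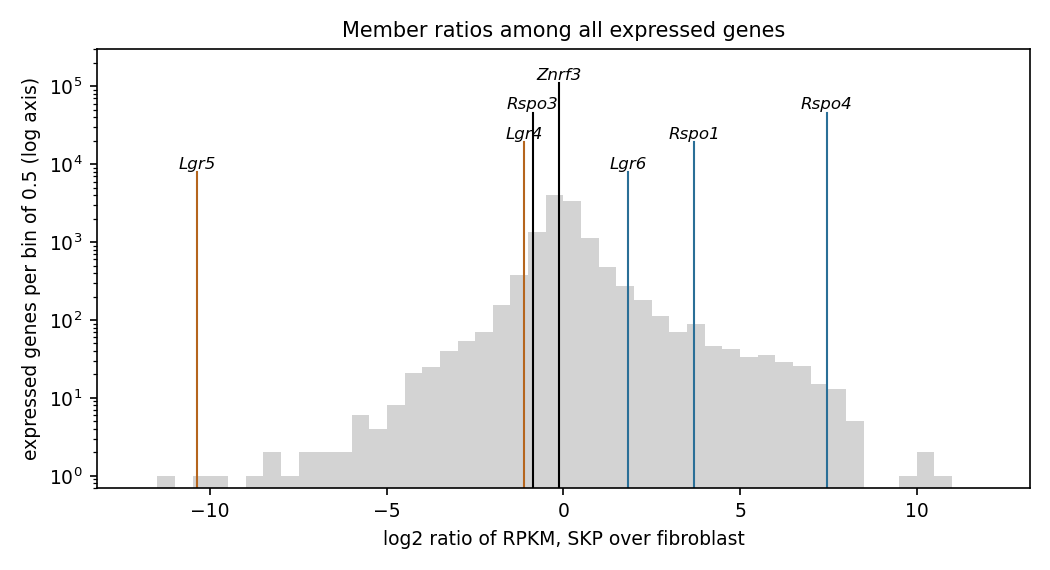
Histogram (log axis, bins of 0.5) of log2 SKP over fibroblast RPKM for 12053 expressed genes, with lines for the 7 expressed members: blue where called higher in the SKP library, brown where called higher in the fibroblast library, black where not called. Lgr5 lies at -10.37 and Rspo4 at 7.45, near the ends of the distribution, and Znrf3 at -0.12 lies near its centre.

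Coverage, the deposited share of a gene's length under reads, was not used to choose the genes. Reads of Lgr5 covered 98.75% of its length in fibroblasts and 9.23% in SKPs, beside medians of 98.5% and 8.93% for genes of like length and number of reads. Rspo4 was covered over 99.16% in the SKP library and 13.83% in the fibroblast library, beside 97.1% and 12.5%. For all 18 values, 9 genes in 2 libraries, the coverage lay between the 5th and 95th percentile of like genes. Matching on reads leaves little room for coverage to differ where reads are few or where the gene is almost fully covered, so this count carries little weight.

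**Figure D4:**
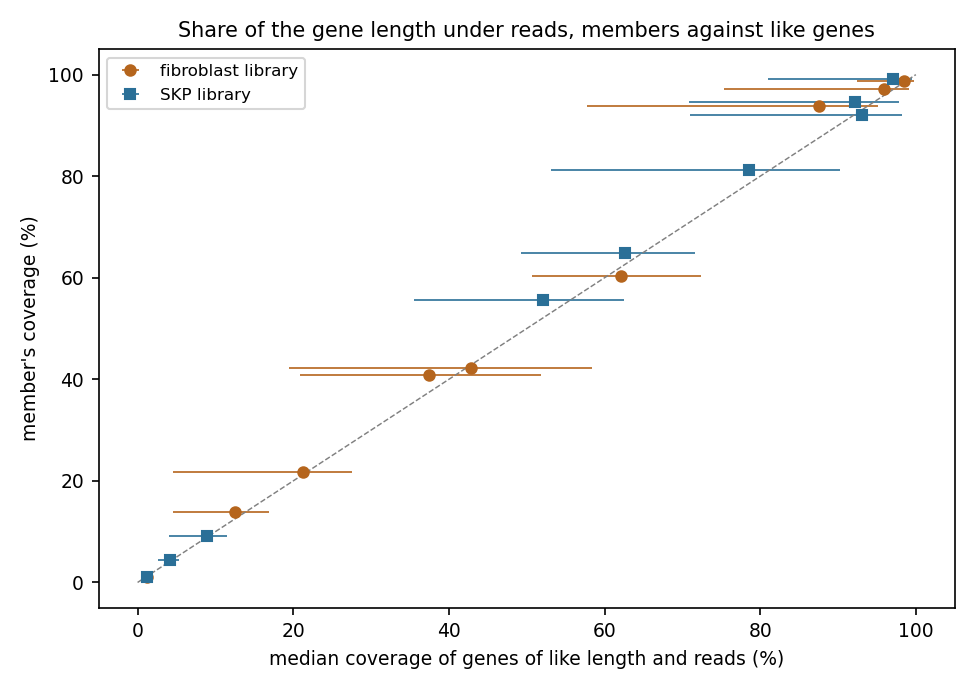
Coverage (%) of each member (vertical) against the median coverage of genes with a like length and number of reads (horizontal), with bars from the 5th to the 95th percentile of those genes; circles are the fibroblast library and squares the SKP library. All 18 points have bars that reach the dashed line of equality.

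Reads shared with other genes could change these levels. Of the stretches of 49 bases, the read length, in the longest GENCODE M21 transcript of each member, none in Lgr4, Rspo1, Rspo2, Rspo4 or Rnf43 matched another gene with at most 2 mismatches. In Lgr5 1.95% of the stretches did, in Lgr6 1.63%, in Znrf3 0.399%, and in Rspo3 12%, where the matches were to Gm48159 and Gm18903. No stretch of an Lgr gene matched another Lgr gene and none of an Rspo gene another Rspo gene. Of 6262 stretches of Znrf3, 8 matched another member.

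Among genes with at least 100 reads in the higher library, the 5 whose log2 ratio lay nearest to that of Lgr5 (-10.37) were Actg2 (-9.87), Cnn1 (-11.49), Lmod1 (-8.72), Siglecg (-8.40) and Wisp2 (-8.09). With 1 value per cell type, likeness here means only a ratio of like size. Actg2, Cnn1 and Lmod1 are genes of smooth muscle contraction. In the list of 7 smooth muscle and pericyte markers, 4 (Acta2, Tagln, Cnn1 and Myh11) were higher in the fibroblast library, and Des (31.0 RPKM against 12.04) and Rgs5 (1.08 against 0.150) were higher in the SKP library. The list summed to 2645 RPKM in fibroblasts, of which Acta2 gave 1953 and Tagln 585, against 108 in SKPs. Its part in the level of Lgr5 was not tested. In such bulk samples fewer cells of a type and less RNA per cell cannot be told apart.

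Most follicle stem cell and keratinocyte markers with a call went the other way from Lgr5. Of 12, 5 were higher in the SKP library (Krt5, Krt14, Krt17, Krt10 and Dsp), and the list summed to 39.6 RPKM there against 14.7 in the fibroblast library. Krt15 had no read in either library, and Krt1 had 0 fibroblast reads and 13 SKP reads. In the fibroblast library Krt5 was at 0.843 RPKM and Krt14 at 0.970. The placental cadherin gene Cdh3, at 10.7 RPKM against 0.372, was the 1 marker of this list higher in the fibroblast library and the 1 that reached RPKM 1 there. Markers of other cell types were also higher in the SKP library, as Rspo4, Rspo1 and Lgr6 were. Besides the 5 keratinocyte markers above, these were 5 of 6 leukocyte and mast cell markers (Cd68, Lyz2, Kit, Cma1 and Hdc). The leukocyte and mast cell list summed to 39.4 RPKM against 3.67. Of 5 adipocyte markers, 4 were higher there (Adipoq, Fabp4, Plin1 and Cidec), and that list summed to 354 RPKM against 30.3. Over all expressed genes 12.1% were higher in the SKP library. The part of these markers in the levels of Rspo4, Rspo1 and Lgr6 was not tested.

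The rest of the Wnt pathway is described from 8 lists, of which the Frizzled and LRP genes stand closest to the ligases. Each count of calls below stands beside the same shares of all expressed genes. These are 12.1% higher in the SKP library and 6.41% in the fibroblast library. The lists are short and were chosen with earlier results of these data known, so nothing is read from the counts. Of 12 Frizzled receptors and LRP coreceptors 11 were expressed, 3 were higher in the SKP library, 0 in the fibroblast library and 8 were not called. The median log2 ratio was 0.69, beside -0.01 over all expressed genes. Higher in the SKP library were Fzd10 (1.07 RPKM against 0.0904, 11.9-fold, 4.81 to 37.8), Fzd4 (3.20-fold, 2.20 to 4.76) and the coreceptor gene Lrp5 (2.01-fold, 1.91 to 2.13). The most abundant receptors were Fzd2, at 75.7 RPKM in fibroblasts and 42.1 in SKPs, and Fzd1, at 21.4 and 41.7 RPKM. Lrp5 lay just inside the 2-fold limit and Fzd1, at 1.95-fold, just outside it. Of the 3 calls, 0 were left on the log2(RPKM + 1) scale, and 1 with RPKM of at least 5 or at 4-fold.

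Wnt ligands, the signals that R-spondins amplify, were divided. Of 19 genes 6 were expressed, 2 were higher in the SKP library, 3 in the fibroblast library and 1 was not called, with a median of -0.09. Over the 15 list genes for which a ratio could be given, filter left off, the median was 0.96. Wnt4 stood at 31.4 RPKM in the fibroblast library against 0.304, while Wnt9a and Wnt16 were the other members higher there. Wnt2 had 223 SKP reads against 10 (21.7-fold, 11.6 to 45.8). Wnt9b had 103 SKP reads against 0, which is 33.3-fold higher when a floor of 3 reads is put in place of 0. The exact lower limit was 26.6. Wnt5a, a ligand of mesenchyme, was at 28.0 RPKM in the SKP library and 15.6 in the fibroblast library.

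Secreted Wnt antagonists and their Kremen coreceptors had 8 of 15 genes expressed. Of these, 5 were higher in the SKP library, 0 in the fibroblast library and 3 were not called, with a median of 1.46. Frzb was 5.22-fold higher there (4.48 to 6.11), Sfrp2 stood at 79.8 RPKM against 30.7, and Dkk2 stood at 31.6 against 10.8. The Wnt-binding protein gene Sfrp5 and the Wnt deacylase gene Notum had 46 and 44 SKP reads against 0. Against the floor they were 14.9-fold and 14.2-fold higher (exact lower limits 11.6 and 11.1). Dkk3 was at 47.3 RPKM in the SKP library and 57.6 in the fibroblast library.

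Genes known as beta-catenin targets or feedback genes had 11 of 14 members expressed, 2 higher in the SKP library, 3 in the fibroblast library and 6 not called. Their median was 0.27. The cell cycle gene Ccnd1 was 3.15-fold higher in SKPs (3.06 to 3.25), at 236 RPKM against 74.7, and the feedback inhibitor gene Axin2 stood at 2.26 RPKM against 1.05 (2.14-fold, 1.64 to 2.81). The Dishevelled-binding inhibitor genes Nkd1 (4.14 RPKM against 1.53) and Nkd2 (35.2 against 13.7) and Myc (23.7 against 8.93) were higher in the fibroblast library. Lef1 (1.92 RPKM in the fibroblast library, 2.47 in the SKP library), Tcf7 (1.31 and 1.56) and Cd44 (86.1 and 51.7) were not called.

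Of 15 genes of Wnt secretion and intracellular transduction, all expressed, 14 were not called, 1 was higher in fibroblasts and 0 in SKPs, with a median of 0.11. The 1 was Porcn, the acyltransferase that makes Wnt proteins active, at 10.2 RPKM against 4.68. The beta-catenin gene Ctnnb1 was at 137 RPKM in fibroblasts and 197 in SKPs. Wls, the carrier of Wnt proteins to the surface, was at 131 and 132 RPKM, Dvl1 at 19.4 and 12.2, and Tcf7l1 at 36.9 and 55.8.

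**Figure D5:**
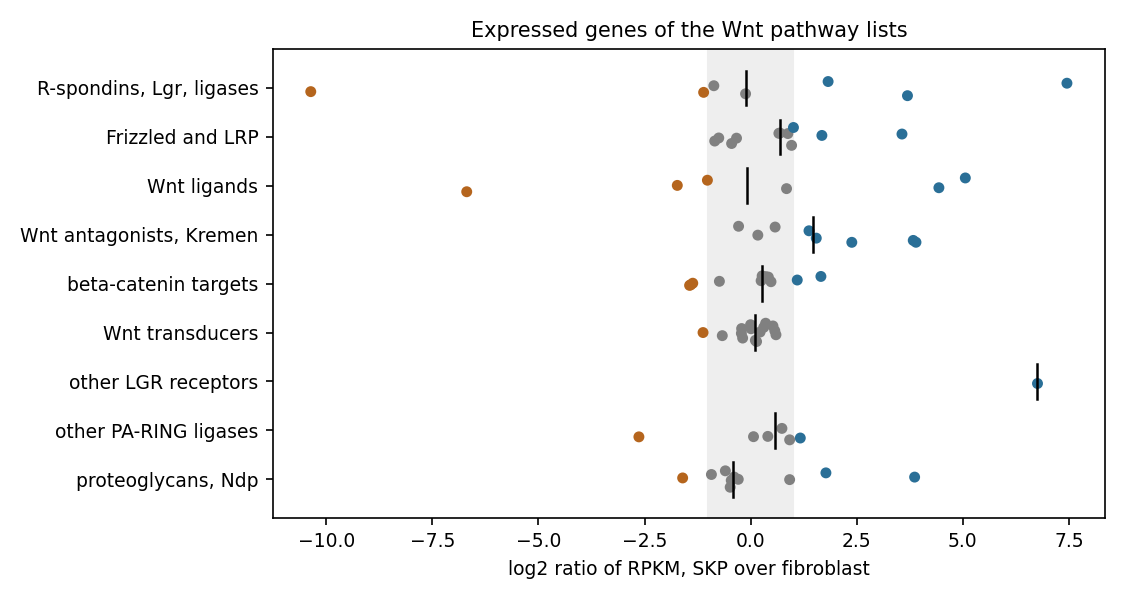
Log2 ratio of SKP over fibroblast RPKM for expressed genes of the R-spondin group and of 8 related lists (blue higher in the SKP library, brown higher in the fibroblast library, grey not called; black ticks are medians; the shaded band is under 2-fold). Wnt antagonists lie mostly to the right, with a median of 1.46, and transducers lie within the band with 1 exception.

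The relatives of the receptors and ligases gave a further comparison. Of 5 other leucine-rich repeat receptors, 3 were listed with no read, Rxfp1 was below the filter, and Tshr, the thyrotropin receptor gene, had 110 SKP reads against 1 (107-fold, 18.8 to 4258). Of 9 other ligases of the protease-associated RING family 6 were expressed, 1 higher in each library and 4 not called, with a median of 0.57. Rnf128 stood at 4.86 RPKM in the fibroblast library against 0.783, Rnf150 was 2.25-fold higher in SKPs (2.09 to 2.42), and the most abundant, Rnf13, was at 37.6 RPKM there against 28.4. Rnf149 (26.2 against 15.7) and Rnf167 (20.4 against 10.8) were not called. The 9 relatives summed to 81.3 RPKM in the fibroblast library, where Znrf3 and Rnf43 together had 1.50.

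Syndecans and glypicans, surface proteoglycans of which some bind R-spondins, were listed with Ndp, which encodes the Lgr4 ligand norrin. All 10 were expressed, 2 were higher in the SKP library, 1 in the fibroblast library and 7 were not called, with a median of -0.42. Sdc1 was at 130 RPKM in the SKP library against 38.1 (3.42-fold, 3.26 to 3.59), and Ndp had 60 reads there against 4 (14.6-fold, 5.40 to 55.2). Gpc6 was at 28.6 RPKM in the fibroblast library against 9.41. Gpc1, at 113 RPKM in fibroblasts and 86.2 in SKPs, was not called, and neither was Sdc4, a known R-spondin binder, at 17.1 and 32.4 RPKM.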

How the data were processed

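Poly(A) RNA was measured in 1 fibroblast and 1 SKP library. Per the file headers, the deposited count is whole reads per gene and the deposited RPKM scales it by gene length and by the counted reads. The deposited coverage is in percent of gene length, and reads of 49 bases were mapped with at most 2 mismatches. The deposited comparison table gives a log2 ratio and a p-value per gene; for the 9 members its log2 ratios equal those used here with the sign turned, and its p-values were not used. The header calls the counted reads unique, but 3924587 more were counted for fibroblasts, and 4370357 more for SKPs, than had a single match, so reads at several positions entered the counts in a way that is not stated. Per the submitters' processing notes, mm9 was the genome build. The aligner, counting tool, annotation and strand: not given in the sources used here.

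Ratios came from counts and totals in Python 3.11.15 (pandas 2.3.3, numpy 2.4.6, scipy 1.17.1; figures, matplotlib 3.10.9), with 95% exact Clopper-Pearson intervals, Poisson ones for levels, and a floor of 3 reads for 0 reads; they were checked on simulated data. At 1 kb, 1 read is worth 0.0543 RPKM in the fibroblast and 0.0528 in the SKP library. PCR duplicates are not independent molecules. With 1 library per group no test was possible. Shared stretches were found with bwa 0.7.19, and promoters came from RefSeq by symbol (5 of 9 members matched). Protein identities, planned for the paralogs, were not computed.

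The members and lists were chosen with earlier results of these data known. Named are all members, up to 3 expressed genes per list by ratio and 2 by level, and the 5 nearest to Lgr5. Genes called in the counts of 5 or fewer given here are named, with some of the genes not called. Lef1, Tcf7 and Sdc4 were added after their values were seen. Alternatives were another scaling, log2(RPKM + 1), other filters and a 4-fold limit.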

Additional observations from a re-analysis of the deposited data

How the results depend on the processing

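With 1 library per group, leaving out a library was not possible, and all values rest on counting error alone. No paired analysis was possible because each group has 1 library. Scaling by the median count ratio moved log2 ratios by 0.01 and changed no count of calls by more than 1.5 times. On the log2(RPKM + 1) scale, 0 Frizzled and LRP genes and 1 beta-catenin target were higher in the SKP library, and 0 transducers were higher in the fibroblast library; Lgr5 was at -6.93, Rspo4 at 4.65, Rspo1 at 2.63, Lgr6 at 0.67 and Rspo2 at -0.66, so Lgr6 was then under 2-fold. Without the expression filter 7 Wnt ligands were higher in the SKP library, and the median of that list was 0.96. Only counts that moved by over 1.5 times follow. With RPKM of at least 5, the counts higher in the SKP library were 1 Frizzled or LRP gene, 1 Wnt ligand, 3 antagonists, 1 beta-catenin target, 0 other Lgr-type receptors and 1 proteoglycan, and 0 other ligases were higher in the fibroblast library. At 4-fold, 1 member (Lgr5) was higher in the fibroblast library, as were 1 Wnt ligand, 0 beta-catenin targets, 0 transducers and 0 proteoglycans; higher in the SKP library were 1 Frizzled or LRP gene, 3 antagonists, 0 beta-catenin targets, 0 other ligases and 1 of the proteoglycan list. The shares called over all expressed genes moved as well. In the main setting 12.1% were higher in the SKP library and 6.41% in the fibroblast library. On the log2(RPKM + 1) scale these shares were 9.11% and 4.21%. They were 9.23% and 5.33% with RPKM of at least 5, and 5.85% and 2.00% at 4-fold. Without the filter they were 12.6% and 6.22% of all genes with a read. No member's ratio and no summed level changed direction. Of the list medians, that of the Wnt ligands was also above 0 on the log2(RPKM + 1) scale (0.11), and that of the beta-catenin targets was -0.16 at RPKM of at least 5; the cause was not tested. Depth limits Rnf43, with 1 read in each library, and the low side of Lgr5, Rspo4 and Rspo2, with 9, 7 and 3 reads.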
